A study of Mus musculus with 16 samples.

Results

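The cytosolic ribosomal proteins are the protein parts of the ribosome that translates mRNA in the cytoplasm. Here they were followed with 83 of the 25697 probes of an Illumina mouse bead array, which stand for 65 genes. A probe was taken when its annotated symbol starts with Rpl or Rps and a number, or is Rplp0, Rplp1, Rplp2 or Rpsa. The S6 kinases, Rps19bp1 and pseudogenes were left out.

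RNA came from TUBO, a line of mammary carcinoma cells whose mouse strain of origin, BALB-neuT, expresses activated rat ErbB2 as a transgene. It is 1 line, and every sample was transfected with Lipofectamine and 200 nM of a hairpin, so no untransfected cells were compared. Controls received the negative control hairpin, called scrambled in the labels, and the others received anti-miR-135b, a hairpin meant to block the microRNA miR-135b. The 6 groups were control and anti-miR-135b cells at 24 h (n = 2 each), at 48 h (n = 3 each) and at 72 h (n = 3 each), 1 array per sample.

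Each cytosolic ribosome has a small subunit, which reads the mRNA, and a large subunit, which joins amino acids. The Rps genes code for proteins of the small subunit and the Rpl genes for proteins of the large subunit, while Rplp0, Rplp1 and Rplp2 form a stalk that recruits elongation factors. Ribosomal protein mRNAs are among the most abundant of growing cells, and most mammalian ones begin with a C and a run of pyrimidines, the 5' terminal oligopyrimidine (TOP) motif, through which mTORC1 controls their translation. Several members also have roles off the ribosome, such as binding of Mdm2 by Rpl5, Rpl11 and Rpl23.

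Array medians ran from 281.2 to 346.8 intensity units. Of 10 epithelial marker genes on the array, 9 were kept by the filter below, Krt8, Krt18 and Cdh1 among them, and their mean log2 level lay between 11.12 and 11.28 in all 6 groups. Of 13 leukocyte markers, 2 were kept, of 15 fibroblast and endothelial markers, 3, of 4 basal markers, 2, and of 8 adipocyte markers, 2, and none of these passed in any comparison. There were 2 chips, the first with the 48 h arrays of each arm and the 24 h controls, the second with the 72 h arrays and the 24 h anti-miR-135b samples. Inhibitor and chip therefore cannot be told apart at 24 h. Time and place on the chip cannot be told apart either, since 24 h arrays sat at the end of each chip, and the same holds for inhibitor and place at 48 and 72 h, where the 3 controls preceded the 3 anti-miR-135b arrays. No label says whether samples of a group were separate cultures, and p-values measure the spread between these samples.

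The start of transcription was examined in RefSeq promoter windows (build GRCm38.p6), which were found for 56 member genes. A run of at least 8 C or T within 30 bases of a start on the transcript strand was present in 29 of them, 51.8%, against 25.6% of 13335 genes on the array. On the opposite strand the shares were 12.5% and 28.0%. A C exactly at the annotated start followed by 4 C or T was present in 11 member genes, 19.6%, against 2.7% of the array's genes. The windows below run from 20 bases before the start to 10 bases from it and belong to stalk genes and to members with the smallest p-values. They are shown because the members described most differ in this feature. Capitals mark the longest run of C or T in each window.
Rplp0, chr5:115559447-115559476, plus strand: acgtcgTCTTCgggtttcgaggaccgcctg
Rplp2, chr7:141447631-141447660, plus strand: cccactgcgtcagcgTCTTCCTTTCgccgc
Rps3, chr7:99483700-99483729, minus strand: gaacaCTTgcaagggtcgccgcgctgcgcg
Rpl36a, chrX:134585634-134585663, plus strand: aggaagtgcaCCCaggcaccgcctataaac
Rpl31, chr1:39367831-39367860, plus strand: caCCTCTTCCTCCTCgcctccccgtgaccc
Rps24, chr14:24490658-24490687, plus strand: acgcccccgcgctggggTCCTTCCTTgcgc
Rps24, second start, chr14:24490733-24490762, plus strand: ccagCTCCggcgccgtagccatcatggtga
Rpl19, chr11:98026690-98026719, plus strand: ccacgtgaccaaacgCCCTCactgcgcatg
Rpl19, second start, chr11:98026904-98026933, plus strand: gggcttgggCTCTCCCCTTCgcagataatg
The longest runs were those of Rpl31, with 13 bases, the second start of Rpl19, with 11, and Rplp2, with 10, while Rps3 and Rpl36a held only 3 in their windows. A match is a description of letters near an annotated start and no evidence of translation control, which was not measured.

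Member genes were spread over 18 chromosomes, 4 of them on X, and were short, with a median span of 3572 bases against 17957 for all genes on the array. Members were bright. A filter at the median of all probes' 16-array means kept 68 member probes for 55 genes. Of these, 36 belong to the large subunit, 25 to the small subunit, 2 to the stalk and 5 to paralogues, which are second copies such as Rps27l. Signal lay above the array's 99th percentile for 45 of the 68. Of their 1088 values, 35 exceeded 60000 intensity units, near the top of the scale, where differences are compressed. The 15 probes below the filter left 10 genes without a kept probe, among them Rplp2, Rpsa, which is also a laminin receptor, Rpl14, Rpl17, Rpl21, Rpl6 and Rps23. No probe named Rpl11, Rpl26 or Rps27a was in the tables used here. Probes can also bind transcripts of near-identical copies, and this was not tested.

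Ribosomal protein probes held a smaller part of the signal at 24 h than later. As a share of the summed deposited intensity of an array, before any normalization, the 83 probes made up 5.37% and 4.62% in the 24 h controls and 4.80% and 4.79% in the 24 h anti-miR-135b samples. At 48 h the controls held 6.06%, 6.29% and 7.20%, and the anti-miR-135b samples 5.79%, 6.51% and 5.89%. At 72 h the controls held 5.47%, 5.42% and 5.57%, and the anti-miR-135b samples 6.97%, 6.67% and 5.97%. All 4 arrays at 24 h, from 4.62% to 5.37%, thus lay below all 12 later arrays, from 5.42% to 7.20%, although the gap was 0.0564 percentage points between the nearest arrays. Arms overlapped at 48 h and did not at 72 h, where the 3 anti-miR-135b arrays were the higher. After background correction the group means were 6.55% and 6.17% at 24 h, 7.81% and 7.84% at 48 h, and 7.34% and 8.33% at 72 h, control first. In bulk RNA, fewer cells of a kind and less RNA per cell cannot be told apart, and no test was made of the shares.

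**Figure D1:**
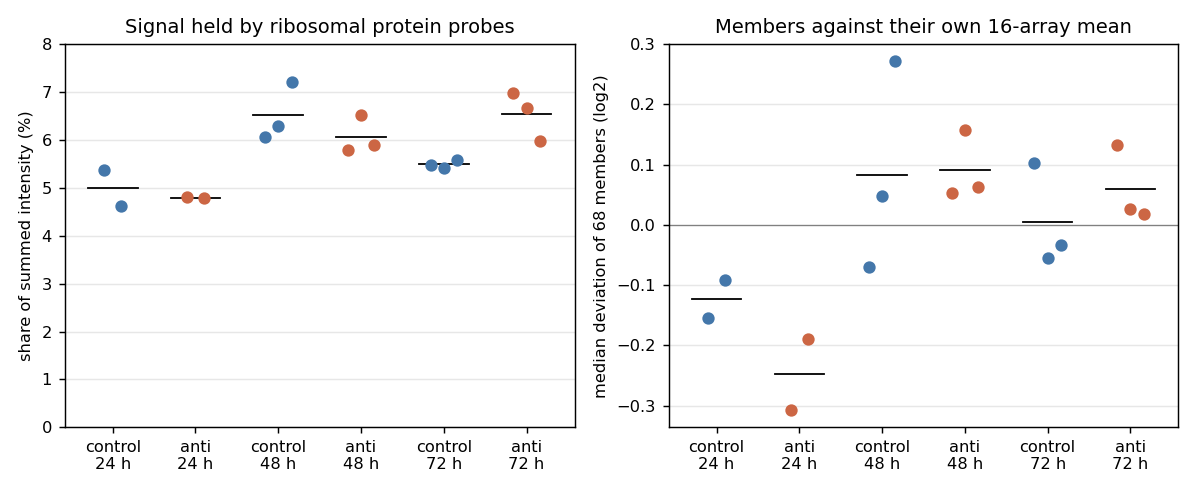
Left, the share of each array's summed deposited intensity (%) held by the 83 member probes. Right, the median over the 68 kept members of their deviation from their own 16-array mean (normalized log2 intensity). Points are arrays, black lines are group means, blue is control and orange anti-miR-135b. The 4 arrays at 24 h are the lowest in both panels, from 4.62% to 5.37% and from -0.31 to -0.09.

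In the quantile-normalized log2 intensities used from here on, 24 h was again the lowest time. The median member stood at -0.12 ± 0.04 (SD, n = 2) from its own 16-array mean in the 24 h controls and at -0.25 ± 0.08 (SD, n = 2) in the 24 h anti-miR-135b samples. It stood at 0.08 ± 0.17 and 0.09 ± 0.06 at 48 h and at 0.00 ± 0.09 and 0.06 ± 0.06 at 72 h, control first (SD, n = 3 each). The 24 h anti-miR-135b group had the lowest mean of the 6 groups for 38 of the 68 members, and the highest for 2. The 24 h controls had the lowest mean for only 7 members and the highest for 5, while the 72 h controls had the lowest for 12. By this count the low position at 24 h was mainly that of the anti-miR-135b group. Under anti-miR-135b, 12 of the 68 members went the other way, with lower levels at 72 h than at 24 h. Rps2, Rps15a and Rps27l were among those with higher levels at 24 h than at 72 h in both arms.

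**Figure D2:**
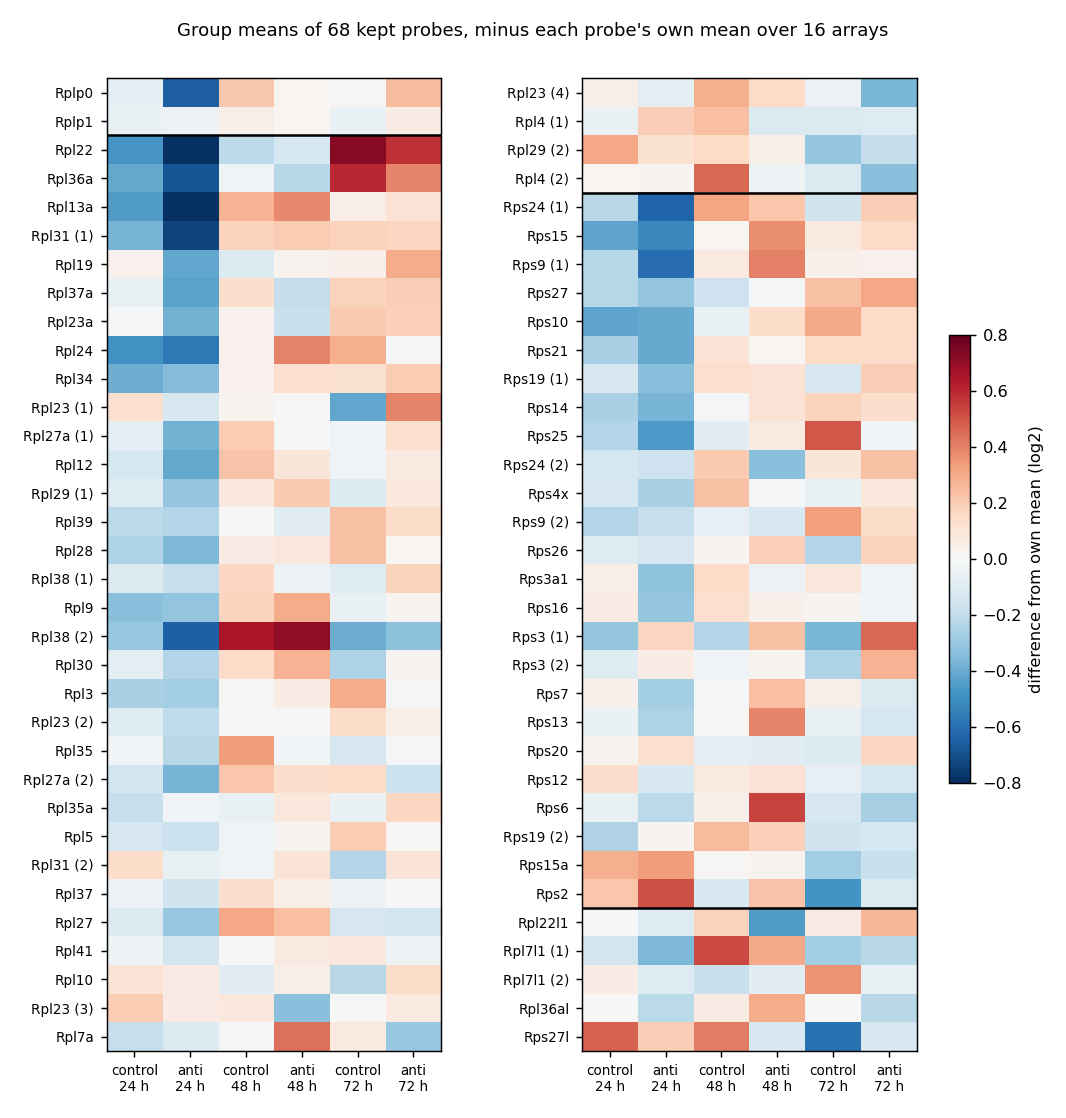
Mean normalized log2 intensity of each of the 6 groups (columns), minus the probe's own mean over 16 arrays, for the 68 kept probes (rows). Lines separate stalk, large subunit, small subunit and paralogue probes, numbers in brackets tell probes of 1 gene apart, rows run from the highest to the lowest anti-miR-135b difference between 72 and 24 h within each class, and the colours end at 0.8 in either direction. Most rows are blue at 24 h, and some, such as Rps2, Rps15a and Rps27l, are the reverse.

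From 24 to 72 h under anti-miR-135b, 6 ribosomal protein probes rose and none fell. They were Rpl36a, Rpl31, Rpl19 and Rpl22 of the large subunit, Rps24 of the small subunit and Rplp0 of the stalk, with rises of 1.64-fold to 2.94-fold. The 6 are 8.82% of the members, and in limma 7.98% of all 12848 kept probes passed the same threshold, an adjusted p under 0.05, so the share called was near that of the array. Counting rises only, 4.2% of all probes passed. Over the whole list, 56 of 68 members were higher at 72 h, against 51.3% of all probes, and the median difference was 0.29 against 0.01. Of the epithelial markers, the keratins Krt8 and Krt18 rose in this comparison, by 0.98 and 1.33, and the splicing regulator Esrp1 fell by 0.74 on the log2 scale (limma, adjusted p 0.00571, 0.00285 and 0.0324). Their part in the members' rise was not tested.

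Rpl36a, an X-linked protein of the large subunit (ILMN_2753219), measured 12.63 and 12.12 at 24 h under anti-miR-135b and 13.65, 13.50 and 13.24 at 72 h. Every 72 h array lay above both 24 h arrays, as for 2852 of all 12848 kept probes. The rise was 1.08 on the log2 scale, 2.12-fold (SE 0.22, limma, adjusted p 0.00618). In the controls the levels were 12.74 and 12.59 at 24 h, 13.01, 13.08 and 13.02 at 48 h and 13.79, 13.68 and 13.54 at 72 h. Those 72 h controls also lay above both 24 h controls, but on another chip, so that step was not tested.

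Rpl31, a large subunit protein whose window holds the longest pyrimidine run shown above, upstream of the annotated start (ILMN_3073486), measured 8.86 and 8.73 at 24 h under anti-miR-135b and 9.82, 9.80 and 9.51 at 72 h. The rise was 0.92, 1.89-fold (SE 0.21, limma, adjusted p 0.0144). The times did not overlap, as for 2852 of all 12848 kept probes in this direction. Its control levels were 9.29 and 9.03 at 24 h and 9.40, 9.77 and 9.98 at 48 h, a difference of 0.55 that did not pass (SE 0.21, limma, adjusted p 0.277). The other kept Rpl31 probe differed by only 0.16 under anti-miR-135b and by -0.18 in the controls, so the probes of this gene disagree in size, and in the controls also in sign.

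Rps24, a small subunit protein mutated in some patients with Diamond-Blackfan anaemia (ILMN_2625060), measured 7.84 and 7.70 at 24 h under anti-miR-135b and 8.72, 8.37 and 8.72 at 72 h. It rose by 0.83, 1.78-fold (SE 0.21, limma, adjusted p 0.0194). The brighter Rps24 probe measured 14.22 and 13.90 against 14.70, 14.47 and 14.22, a difference of 0.40 that did not pass. Both probes had higher means at 72 h, though the arrays of the brighter one met at 14.22.

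Rpl19, a large subunit protein, measured 13.39 and 13.35 at 24 h under anti-miR-135b and 14.03, 14.05 and 14.17 at 72 h. The rise was 0.71, 1.64-fold (SE 0.20, limma, adjusted p 0.0356). Over the shorter step from 24 to 48 h, the controls went from 13.84 and 13.79 to 13.51, 13.67 and 13.84. The difference between those control times was -0.15 (SE 0.20). At 72 h, on another chip, the controls measured 13.64, 13.82 and 14.01, and that step was not tested. For Rpl19 the 24 h anti-miR-135b samples were the 2 lowest of all 16 arrays, and no share over all probes was taken for this. Between the 24 h arms alone, which lay on different chips, 16.5% of all kept probes were lower with no overlap.

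Rpl22, a large subunit protein that also binds viral small RNAs, had the greatest rise of the 6 and the widest spread. It measured 8.67 and 8.41 at 24 h under anti-miR-135b and 10.61, 9.87 and 9.81 at 72 h, a rise of 1.56, 2.94-fold (SE 0.44, limma, adjusted p 0.0359). Control levels were 9.27 and 8.81 at 24 h and 10.81, 10.07 and 9.85 at 72 h, which gives them the same order on different chips. At 48 h the control arrays were as far apart as 10.36 and 8.45.

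Rplp0, the base of the stalk and a common reference gene in PCR, measured 8.59 and 8.43 at 24 h under anti-miR-135b and 9.73, 9.14 and 9.38 at 72 h. It rose by 0.91, 1.88-fold (SE 0.27, limma, adjusted p 0.0447). The 24 h controls, at 9.24 and 8.93, already overlapped the 72 h controls, at 9.29, 9.33 and 8.91. Rplp1, its stalk partner, stayed between 15.84 and 16.09 on all 16 arrays, with a difference of 0.11 from 24 to 72 h (SE 0.17) that ran from -0.29 to 0.22 over the other settings, at intensities near the top of the scale.

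**Figure D3:**
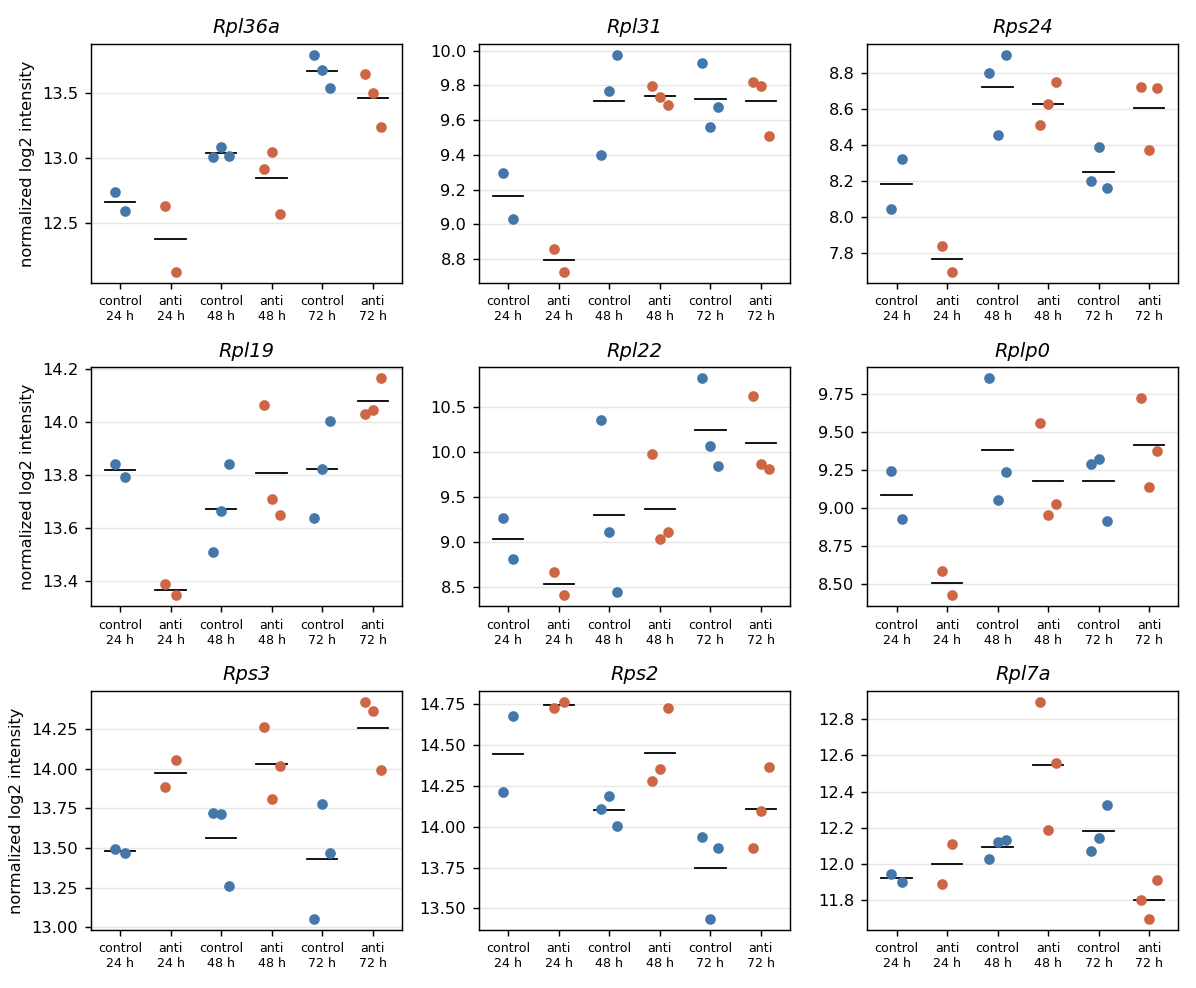
Normalized log2 intensity on each array (points) with group means (black lines) for the 6 probes that rose from 24 to 72 h under anti-miR-135b (upper and middle rows) and for Rps3, Rps2 and Rpl7a (lower row). Blue is control and orange anti-miR-135b, and each panel has its own axis that does not start at 0. In the upper and middle rows the 24 h anti-miR-135b mean is the lowest of the 6 group means.

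The next members in order of p missed the threshold: Rps15 with a difference of 0.67 (limma, adjusted p 0.0575) and Rpl13a, which in human cells also silences translation of inflammatory mRNAs, with 0.92 (limma, adjusted p 0.0588). At an unadjusted p under 0.05, 21 members were higher and 1 was lower, against 11.8% and 11.3% of all probes and 23.1% in either direction. The exception, Rps2 of the mRNA channel, measured 14.73 and 14.76 at 24 h under anti-miR-135b and 13.87, 14.10 and 14.36 at 72 h. Its difference was -0.64 (SE 0.23, limma, adjusted p 0.0976). Rps15a, with -0.51, and Rpl4, with -0.36, had the smallest p-values after it among lower members. Neither passed, and Rps15a is a dim probe near the filter.

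These calls rested on few arrays. Without the 24 h anti-miR-135b sample numbered 12, no member passed, and without sample 11, 1 did, while the calls over all 12848 probes went from 1025 to 25 and 474. Without the 72 h samples 16, 17 and 18 in turn, 1, 4 and 2 members passed, of 441, 677 and 665 probes called in all. The median of the members moved less, from 0.20 to 0.36 over all left-out arrays.

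In control cells from 24 to 48 h no member passed. The median member was higher by 0.19, against 0.02 for all probes, but stood at -0.09 in the authors' deposited value table. After quantile normalization 55 of 68 were higher, against 52.5%. In limma 0.926% of all probes passed, and at an unadjusted p under 0.05, 7 members were higher and 0 lower, against 7.1% of all probes higher and 12.4% in either direction. These arrays share no sample with the anti-miR-135b change from 24 to 72 h, but the 2 changes are not independent. In both, the 24 h arrays sat at the end of their chip, and all arrays were normalized together. With 55 and 56 of 68 members higher in each change alone, a large overlap was bound to occur. Both differences were positive for 48 of 68 members, and both negative for 5, whereas 33.2% of all probes were positive in both.

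The probe with the smallest p in the controls was one of Rpl38, a large subunit protein needed in mice for translation of Hox mRNAs (ILMN_2594971). It measured 9.35 and 9.74 at 24 h and 9.77, 10.67 and 11.07 at 48 h, a difference of 0.96 (SE 0.33, limma, adjusted p 0.204). At 72 h the controls measured 9.37, 9.26 and 9.72. Anti-miR-135b cells measured 10.30, 10.61 and 10.76 at 48 h and 8.99, 9.86 and 9.70 at 72 h. In both arms the 72 h arrays lay on another chip than the 48 h arrays, so time and chip cannot be told apart in that step. The brighter Rpl38 probe, at 15.20 to 15.79 over all arrays, differed by 0.27 in the controls, and by -0.49 in the authors' deposited value table. Without the 48 h control sample numbered 4, the difference of the first probe was 1.32 and passed (limma, adjusted p 0.0398).

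Rpl7l1, a paralogue of Rpl7, had 2 kept probes that disagreed in the controls, with 0.68 for the brighter (limma, adjusted p 0.248) and -0.23 for the dimmer. Rps24 (ILMN_2625060) differed by 0.54, with 8.04 and 8.32 at 24 h and 8.80, 8.46 and 8.90 at 48 h (limma, adjusted p 0.274). Rps2 again led the lower members with -0.35, its 48 h controls at 14.11, 14.19 and 14.01 lying below both 24 h controls, 14.21 and 14.68. Such a separation downward held for 1629 of all 12848 kept probes.

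**Figure D4:**
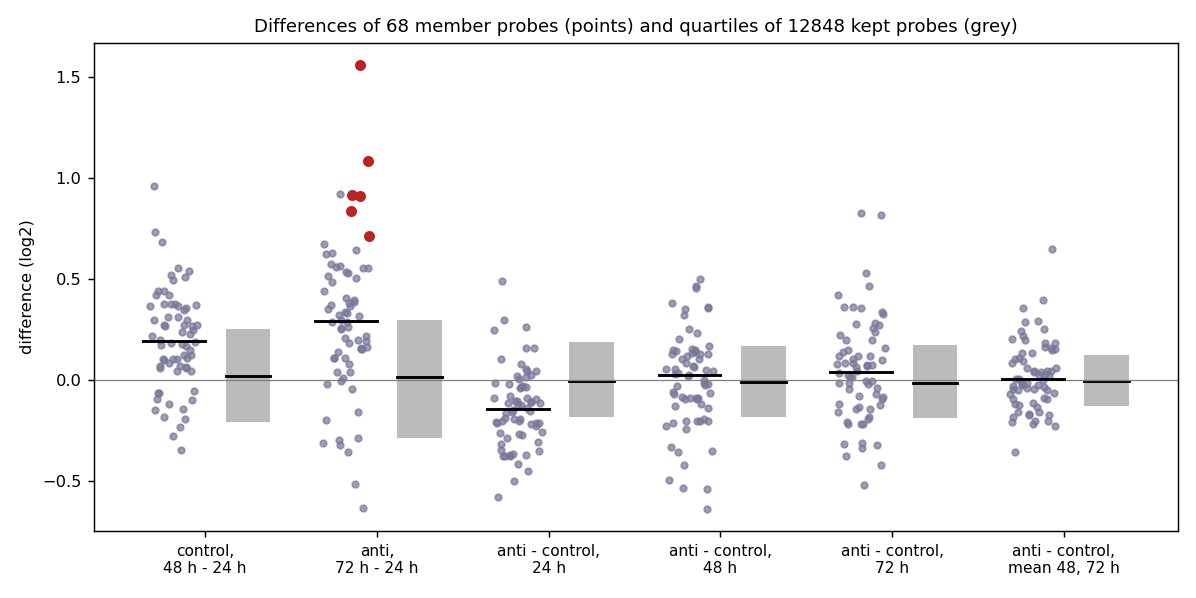
Differences in normalized log2 intensity of the 68 kept member probes (points) beside the quartiles of all 12848 kept probes (grey bars), with medians as black lines, for 6 comparisons. Red points passed an adjusted p of 0.05. Members lie mostly above 0 in both changes over time (55 and 56 of 68, with a median of -0.09 for the controls in the authors' table), mostly below 0 for anti-miR-135b against control at 24 h (15 above, with a median of 0.04 under median scaling), and around 0 for the inhibitor at 48 and 72 h.

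The size of the shift over time depended on how arrays were put on 1 scale. The median member differed in the controls by 0.94 when arrays were only scaled to a common median, by 0.19 after quantile normalization and by -0.09 in the authors' deposited value table, so that its direction is not settled. Median scaling moved the median of all probes itself from 0.02 to 0.32 in this comparison, and 36 members passed there, among 1265 of the 12848 probes, 98.1% of them higher. Under anti-miR-135b the median member was higher under each of these scalings, from 0.22 to 0.51. Bright probes shift together with the scale, so members above the 99th percentile were also set beside the 212 other probes that bright, a comparison added after the data were seen. The 45 bright members stood above those probes by 0.17 in the controls (0.14 to 0.20 over the other settings, 0.10 to 0.25 with an array left out) and by 0.34 under anti-miR-135b (0.33 to 0.42, and 0.21 to 0.48). Of the 45, 36 and 43 lay above the median of the other bright probes. These are descriptions with no test.

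**Figure D5:**
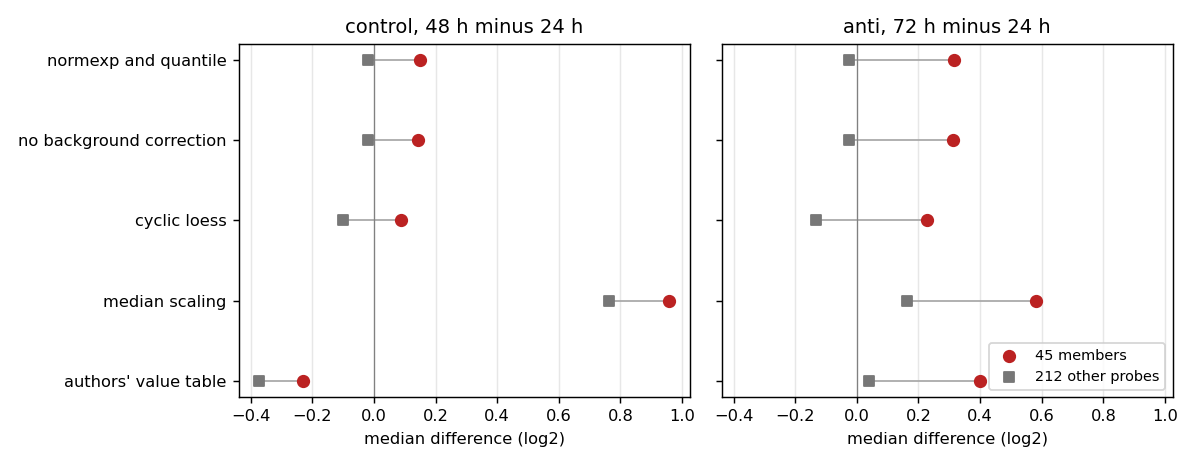
Median difference in log2 intensity of the 45 bright members (red circles) and of the 212 other probes above the 99th percentile of signal (grey squares) under 5 ways of scaling the arrays, for controls from 24 to 48 h (left) and anti-miR-135b from 24 to 72 h (right). The position of both moves with the scaling in the controls, from -0.23 to 0.96 for the members, and the circle lies right of the square in each row.

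The inhibitor itself moved no member past the threshold at 48 h, at 72 h or in their mean. In limma 0% of all probes passed in each of these comparisons, so the members share this with the array. The members' median difference was 0.02 at 48 h, 0.04 at 72 h and 0.00 in the mean, with 36, 38 and 35 of 68 higher. Median scaling gave -0.46 at 48 h and 0.31 at 72 h, and 0.27 at 48 h came from the authors' deposited table, so no direction is settled. At an unadjusted p under 0.05, 3 members stood out at 48 h, 4 at 72 h and 4 in the mean, against 6.24%, 7.13% and 7.84% of all probes. With array weights the members past the threshold were also 0 in each.

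Rps3, a small subunit protein of the mRNA entry channel that also takes part in DNA repair, had the smallest p of all members in the mean of 48 and 72 h (ILMN_2637639). Control levels were 13.49 and 13.47 at 24 h, 13.72, 13.71 and 13.26 at 48 h, and 13.05, 13.78 and 13.47 at 72 h. Under anti-miR-135b they were 13.89 and 14.06, then 14.26, 13.81 and 14.02, then 14.42, 14.36 and 13.99. The arms did not overlap at any of the 3 times, nor over 48 and 72 h together. At 24 h the arms lay on different chips, and 16.4% of all probes were higher there with no overlap. For 0.428% of all probes, anti-miR-135b arrays lay above the controls within 48 h and also within 72 h. No share was taken over both times together or over all 3 times.

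The Rps3 difference was 0.65 in the mean, 1.56-fold (SE 0.15, 95% interval 0.32 to 0.97), with an unadjusted p of 0.000528 in limma that did not survive adjustment (adjusted p 0.251). By time it was 0.49 at 24 h, 0.47 at 48 h and 0.83 at 72 h, and with median scaling the 48 h difference turned to -0.08. The other Rps3 probe measured 13.36, 13.41 and 13.52 in the 72 h controls and 14.06, 14.02 and 13.79 under anti-miR-135b, a difference of 0.53 (SE 0.18, limma, adjusted p 0.60). At 48 h that probe differed by only 0.05. Both probes were thus higher at 72 h with no overlap of arms, and neither passed. At that time 1028 of all 12848 kept probes were higher with no overlap of arms.

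Rps2 was higher under anti-miR-135b at each time, by 0.30, 0.35 and 0.36 at 24, 48 and 72 h, and by 0.36 in the mean (SE 0.15, limma, adjusted p 0.572). At 48 h its controls, 14.11, 14.19 and 14.01, lay below the anti-miR-135b arrays, 14.28, 14.35 and 14.73, as for 601 of all 12848 kept probes. Rpl4, a large subunit protein that lines the exit tunnel, was the member with the smallest p among lower ones in the mean, at -0.36 (SE 0.18, limma, adjusted p 0.672). Its arms overlapped at both times.

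Some members differed in opposite directions at the later times. Rpl7a, a large subunit protein, measured 12.03, 12.12 and 12.13 in the 48 h controls and 12.90, 12.19 and 12.56 under anti-miR-135b. At 72 h it measured 12.07, 12.15 and 12.33 in controls and 11.80, 11.70 and 11.91 under anti-miR-135b. Anti-miR-135b arrays were all the higher at 48 h and all the lower at 72 h, with differences of 0.45 and -0.38. Of all 12848 kept probes, 601 had no overlap in the higher direction at 48 h and 907 in the lower direction at 72 h. The difference between those effects was -0.83 (SE 0.27, unadjusted p 0.00621 in limma, adjusted p 0.852), and with median scaling it was 0.09.

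Rps25, a small subunit protein needed for initiation on some viral RNAs, measured 13.50, 13.12 and 13.00 in the 72 h controls and 12.75, 12.51 and 12.80 under anti-miR-135b. That difference was -0.52 (SE 0.19, limma, adjusted p 0.60), while at 48 h it was 0.15. Rps27l, a paralogue of Rps27 and a Trp53 target, differed by -0.54 at 48 h and by 0.47 at 72 h. Rpl22l1, the paralogue of Rpl22, differed by -0.64 at 48 h (SE 0.24, limma, adjusted p 0.755) and by 0.20 at 72 h. The changes between times of Rps27l, 1.00, and Rpl22l1, 0.84, had an adjusted p of 0.852 in limma, the same as for Rpl7a. No member passed in this comparison, in which 0% of all probes did and 6 members had an unadjusted p under 0.05, against 5.5% of all probes.

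At 24 h members were lower under anti-miR-135b, with a median of -0.14 against -0.01 for all probes and 53 of 68 lower, but a median of 0.04 under median scaling. None passed in limma, nor did any probe of the array (0%), and 0 members had an unadjusted p under 0.05, against 4.06% of all probes. Arrays did not overlap for 21 lower and 5 higher members, where 16.5% and 16.4% of all probes did so. Rplp0 differed by -0.58 (SE 0.29), Rpl19 by -0.45 (SE 0.22) and Rps24 (ILMN_2625060) by -0.41 (SE 0.23), while Rps3 and Rps2 were higher. These arms lay on different chips.

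By place in the ribosome, both subunits had positive medians over time after quantile normalization. The 36 large subunit probes had a median difference of 0.25 in the controls and 0.29 under anti-miR-135b, with 30 and 31 higher. The 25 small subunit probes had 0.12 and 0.31, with 20 higher in each. For the inhibitor in the mean of 48 and 72 h the medians were -0.02 and 0.06. The 5 paralogue probes had 0.07 and 0.04 over time.

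Of the members described by role, only Rplp0, Rpl36a, Rps24 and Rpl22 passed in any of the 7 comparisons. For Rps24 that was the dimmer probe (ILMN_2625060), and the brighter one did not pass. Rpl5, which carries 5S RNA and binds Mdm2, had group means from 14.13 to 14.50, with 0.18 from 24 to 72 h under anti-miR-135b (SE 0.22). Rps6, the substrate of S6 kinase, had group means from 11.70 to 12.50, the highest being anti-miR-135b at 48 h. Its arms overlapped there, with 11.45, 12.31 and 12.24 in controls and 12.28, 12.37 and 12.85 under anti-miR-135b. Rps19, the gene most often mutated in Diamond-Blackfan anaemia, had a bright probe with 0.53 from 24 to 72 h (SE 0.22, limma, adjusted p 0.146) and a dim one with -0.16. The other X-linked members Rpl10, Rpl39 and Rps4x differed by 0.08, 0.38 and 0.35 there, and none passed, with Rpl10 running from -0.25 to 0.22 over the other settings.

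Paralogues were set beside their partners in the change from 24 to 72 h. Rps27 differed by 0.63 under anti-miR-135b (SE 0.22, limma, adjusted p 0.0892) and Rps27l by -0.32 (SE 0.29). Rpl22 rose by 1.56, as above, and Rpl22l1 differed by 0.37 (SE 0.27). Rpl36al differed by -0.01, and by -0.12 to 0.15 over the other settings, beside the rise of Rpl36a.

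Several members had more than 1 kept probe, and these give a check within a gene. Of 11 such genes, all probes had the same sign for 8 in the change from 24 to 72 h, for 7 in the controls over time, and for 6 at 48 h, 6 at 72 h and 7 in their mean for the inhibitor. Rpl23, a large subunit protein that also binds Mdm2, had 4 kept probes. A dim one (ILMN_2685675) measured 7.26, 6.48 and 6.91 in the 72 h controls and 7.67, 7.58 and 7.85 under anti-miR-135b, a difference of 0.81 (SE 0.21, limma, adjusted p 0.449). The brightest (ILMN_2946482) differed by 0.08 there and by -0.42 at 48 h, and a further probe (ILMN_1238227) by -0.32 at 72 h. No direction for Rpl23 follows from these.

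Fau, which codes for a small subunit protein fused to a ubiquitin-like one and falls outside the naming rule, rose by 1.06 from 24 to 72 h under anti-miR-135b (SE 0.25, limma, adjusted p 0.0138). Of 36 kept probes for translation factors and other genes with TOP mRNAs, 1 rose, that of Eif3h (0.81), and 1 fell, that of Nap1l1 (-1.17), with a median of -0.05 there and of 0.09 in the controls from 24 to 48 h. None of 16 probes for mTORC1 and TOP regulators passed in either change over time, and their medians were 0.09 and 0.14. The 96 probes for mitochondrial ribosomal proteins, which translate mitochondrial mRNAs, had medians of 0.15 in the controls and 0.04 under anti-miR-135b. Of them, 6 rose and 2 fell under anti-miR-135b, and 1 rose in the controls. The 46 proteasome probes went the other way, with medians of -0.22 and -0.45, and 5 of them fell under anti-miR-135b. Among all 12848 kept probes, 540 rose and 485 fell under anti-miR-135b, 7.98% in either direction, and 0.926% passed in the controls. Differences between these lists and the ribosomal proteins were not tested.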

How the data were processed

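Bead-averaged intensities of 25697 probes on 16 arrays were used as the authors deposited them, not normalized. Per the submitters' processing notes they came from GenomeStudio (version not given). A second table, deposited by the authors, gives log2 values, normalized in a way the sources used here do not give, with column medians from 8.24 to 8.26. Each of its 16 columns ranked probes like the array of its own sample, and it was only an alternative. Detection p-values and control probes were not used here.

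In limma 3.58.1 (R 4.3.3), normexp with an offset of 50 corrected the background, and arrays were quantile normalized on the log2 scale. Probes above the median of all mean signals, a log2 value of 7.1, were kept, 12848 in all. lmFit and eBayes fitted 1 mean for each of the 6 groups (10 residual and 7.76 prior degrees of freedom). P-values are two-sided, adjusted by Benjamini-Hochberg over all kept probes of a comparison, with a threshold of 0.05. Lists were described by counts and medians, with no test. The number of arrays limits the precision.

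Named probes were all members past the threshold in a comparison. Where none passed in a direction, the 4 smallest p-values (inhibitor at 48 h, 72 h and their mean) or the 3 smallest (other comparisons) were taken, and members with fixed roles were added. Rps15 and Rpl13a in the change from 24 to 72 h and the other probes of a named gene were added after their values were seen. Members and lists were chosen with earlier results of these data known. Alternatives were no background correction, an offset of 16, median scaling, cyclic loess, the authors' table, other filters on dim probes, array weights, fits to fewer arrays and each array left out. Only the fit was tested on simulated data, drawn around the normalized means of kept probes. Background correction, normalization and the filter were not tested in this way. Promoter windows are RefSeq's.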

Additional observations from a re-analysis of the deposited data

How the results depend on the processing

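Over 845 alternatives of the 51 differences chosen by their p-values, 789 kept direction and side of the threshold. Of the rest, 39 lost a call, 6 gained one and 11 changed sign. Only 6 of the 51 had passed and so had a call to lose, each with 15 alternatives. Direction and call were kept in 13 for Rpl36a, 11 for Rpl31, 10 for Rps24, 7 for Rpl22 and 5 each for Rpl19 and Rplp0. For the other differences, keeping the side of the threshold meant staying uncalled. With median scaling, sign changes at 48 h were Rpl7a -0.16, Rps3 -0.075, Rps6 -0.093 and Rps15 -0.24, at 72 h Rpl3 0.15, between the inhibitor effects Rpl7a 0.091, Rps25 0.29 and Rpl24 0.28, and in the controls over time Rps2 0.55. In the authors' table Rpl23 (ILMN_2946482) turned to 0.016 at 48 h. Rps15a in the controls ran from -0.65 to 0.092 with arrays left out, turning without the 24 h control sample 2. Among 72 further differences, of members taken for their roles, 44 changed sign in at least 1 alternative. Of these, 19 did so with median scaling, 19 in the authors' table and 31 with an array left out. Differences past the threshold were all among the 51, so the 72 held no call to begin with. In the authors' table the control change over time of Rplp1 turned from 0.11 to -1.20 and that of Rpl5 from 0.10 to -0.33, and with median scaling that of Rpl10 turned from -0.20 to 0.31. The members' median moved with median scaling to -0.46 at 48 h, 0.31 at 72 h, 0.043 at 24 h, 0.84 for the difference of effects, 0.94 in the controls and 0.51 under anti-miR-135b over time. In the authors' table it moved to 0.27 at 48 h, 0.11 in the mean, -0.23 for the difference of effects and -0.085 in the controls. The cause was not tested. Median scaling moved the median of all probes to -0.27 at 48 h and to 0.32 in the controls.

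Members past the threshold in the controls over time numbered 36 with median scaling, 1 with array weights and 0 to 1 with an array left out. Under anti-miR-135b from 24 to 72 h they numbered 1 with median scaling, 12 with array weights (11 higher, 1 lower) and 0 to 8 with an array left out. All probes called there numbered 377 to 2178 against 1025, and 25 to 1291 with an array left out. In the controls 17 to 1265 were called against 119, and 19 to 165 with an array left out. With median scaling 98.1% of calls in the controls were higher, against 52.9%, and with only the compared groups fitted 23.5%. Inhibitor calls over all probes reached at most 2 at 72 h, 8 in the mean and, with arrays left out, 4 at 48 h and 6 in the mean. Taking 1 probe per gene moved no median by more than the spread between arrays. No paired analysis was possible because the groups share no replicate numbers. Dim probes and intensities near the top of the scale limit the folds of Rpl23, Rps15a and Rplp1.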

Other observations

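The 15 member probes below the filter lay between the percentiles 9.04 and 43.8 of signal. They included both probes of Rpl21 and of Rpsa, both dropped probes of Rpl37, and a second probe of Rplp0 at 27.1, although Rpl37 and Rplp0 each had a kept probe as well. Rpl3l and Rpl39l, paralogues of Rpl3 and Rpl39, lay at 10.4 and 27.4.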
